A study of Homo sapiens with 12 samples.

Results

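Cultured human melanoma cells of the established line A375 were given hemin alone or left untreated. Hemin is the stable chloride of oxidised heme and is given to cells to raise their heme. The libraries were taken by their labels, 3 of hemin-treated cells (Hemin) and 3 of untreated cells (Ctrl) out of 12 RNA-seq libraries, and all genes were compared. The remaining libraries were of A375 cells given DdBIC (DBIC in the labels), a compound with which the study disturbs heme metabolism, without hemin (DdBIC, 3 libraries) or with it (DdBIC+Hemin, 3 libraries). They shared the estimate of the spread and answered 1 question here, whether the hemin effect differed in the presence of DdBIC. All groups were the same unmodified line, so the values describe 1 line. The dose and the duration of hemin in these libraries, and the serum in which the Ctrl and Hemin cells were kept, are not given in the sources used here. The labels do not say whether the 3 libraries of a group came from separate cultures, and the p-values then measure only the spread between these libraries, which may be technical.

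Of the 20263 genes in the table, 14287 had enough counts to be tested. The 6 libraries held 37951275 to 40304459 counts each, and 3 counts, the upper limit that a count of 0 allows, corresponded to 0.0744 to 0.079 CPM, the count scaled to a common library size. Levels are given as CPM after edgeR's TMM scaling, and a difference is a log2 ratio of Hemin to Ctrl with its standard error (SE). Melanoma markers of both kinds were present in all 6 libraries, those of differentiation (SOX10, ERBB3, MITF and PAX3) and those of dedifferentiated cells or melanoma antigens (AXL, MCAM, CSPG4 and PRAME), SOX9 was low at 0.624 to 1.02 TPM, the pigment genes TYR (0 to 2 counts), MLANA (1 to 17 counts) and DCT (5 to 14 counts) were near 0. Among immune marker genes the leukocyte gene PTPRC was at 0, CD3E had 0 to 2 counts, CD14 16 to 42 and LYZ 52 to 88, and HLA-DRA, an MHC class II gene that melanoma cells can also express, had 9701 to 10564 counts. In a principal component analysis of the 6 libraries Ctrl replicate 3 stood apart, at 36 on the second component (20.9% of the variance) against -14.4 to 2.23 for the other libraries. Without it 292 genes were called, 282 of them among the 580 called with all libraries, and the calls of named genes that were lost without it are given beside them. Of the tested genes, 1486 spanned more than 1 log2 unit within one of the groups of 3, 339 of them among the 10599 genes with a Ctrl mean above 5 CPM. Such genes could not be assessed well. The small MAF protein gene MAFG, a partner of NRF2 and BACH1, read 112.6, 30.5 and 115.9 CPM in Ctrl and 25.6, 104.7 and 104.2 CPM in Hemin, and the amino acid transporter gene SLC7A5 read 1916, 855 and 820 CPM against 2214, 973 and 954 CPM.

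Heme is made in steps that begin and end in the mitochondrion, and ALAS1, the first enzyme, sets the pace of synthesis in non-erythroid cells and is held down by heme itself. Heme oxygenase-1, encoded by HMOX1, opens the heme ring and releases iron, carbon monoxide and biliverdin. Its gene is repressed by BACH1, which heme removes from DNA, and is activated by NRF2. Free iron is stored in ferritin, and heme also acts on the eIF2alpha kinase HRI (EIF2AK1), which is inhibited when heme is plentiful, and on the nuclear receptors REV-ERBalpha and REV-ERBbeta (NR1D1 and NR1D2). The lists of genes below follow these known points of contact and the other pathways of the study.

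Hemin changed few genes strongly and many slightly. At an adjusted p under 0.05 (edgeR's quasi-likelihood test, Benjamini-Hochberg adjustment), 580 of 14287 genes (4.06%) differed, of which 210 (1.47% of those tested) were higher and 370 (2.59%) were lower with hemin. Only 8 rose and 8 fell by at least 1 log2 unit, and the median size of a called difference was 0.283 log2 units. For all 580 genes the 3 Hemin libraries lay outside the range of the 3 Ctrl libraries, as they did for 25.1% of all genes tested. Over all genes the median difference was 0.00257 log2 units. When each of the 6 libraries was left out in turn, 272 to 373 genes were called, and 237 of the 580 genes (87 higher and 150 lower) kept their call every time. The fewest calls were made without Hemin replicate 2 (272) and without Ctrl replicate 3 (292), and the others were 338 without Hemin replicate 3, 341 without Ctrl replicate 2, 364 without Ctrl replicate 1 and 373 without Hemin replicate 1.

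**Figure D1:**
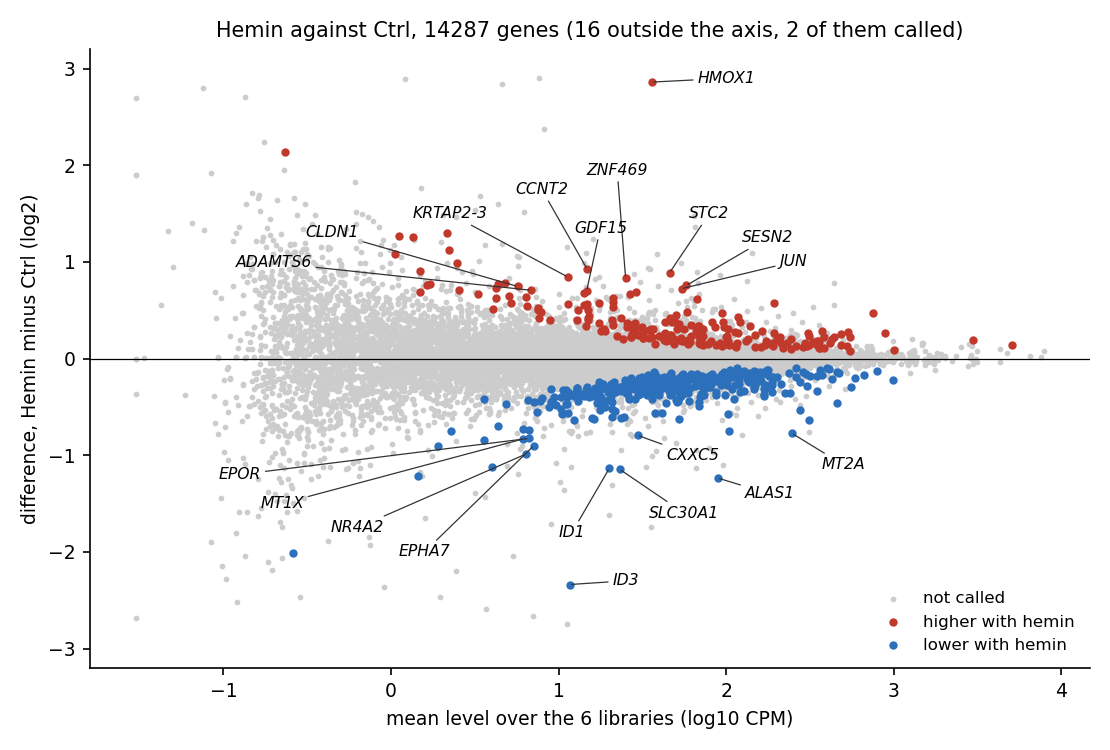
Difference between Hemin and Ctrl (log2, y axis) against the mean level over the 6 libraries (log10 CPM, x axis) for each tested gene, with called genes in red (higher) and blue (lower) and the 10 largest called rises and 10 largest called falls named. HMOX1 (2.86) and ID3 (-2.34) lie farthest from 0 among the genes named, most called genes lie within 0.5 of 0, and 16 genes lie outside the axis, 2 of them called.

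Among called genes of at least 5 CPM, the largest rise was that of HMOX1 (chr22:35380361-35394214, plus strand, hg38). It read 7.99, 8.94 and 9.19 CPM in Ctrl and 62.2, 65.5 and 61.9 CPM in Hemin. Every Hemin library was far above every Ctrl library, a difference of 2.86 log2 units (SE 0.10, adjusted p = 1.18e-07), or 7.26-fold. None of the other 14 members of the heme degradation and transport list was called. HMOX2, the constitutive heme oxygenase, had means of 83.4 and 92.4 CPM (difference 0.15, adjusted p = 0.25), and the biliverdin reductase genes BLVRA and BLVRB differed by -0.10 (adjusted p = 0.561) and -0.01 (adjusted p = 0.987).

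The clearest fall by its test was that of ALAS1 (chr3:52198086-52214327, plus strand, hg38). It read 123.3, 124.7 and 127.4 CPM in Ctrl and 53.9, 52.6 and 52.9 CPM in Hemin. The 3 libraries of each group lay close together and the groups were well apart, with a difference of -1.24 log2 units (SE 0.035, adjusted p = 1.97e-08). It was the single called gene of the 18 tested genes of heme synthesis, whose median difference was -0.0072. The nearest of the rest was CPOX, coproporphyrinogen oxidase, with 115 ± 1.9 CPM in Ctrl and 105 ± 3.3 CPM in Hemin (SD, n = 3; difference -0.13, adjusted p = 0.0686 by edgeR). The erythroid paralogue ALAS2 was too low to test, at 0 to 4 counts a library. The calls of HMOX1 and ALAS1 both held whichever of the 6 libraries was left out.

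**Figure D2:**
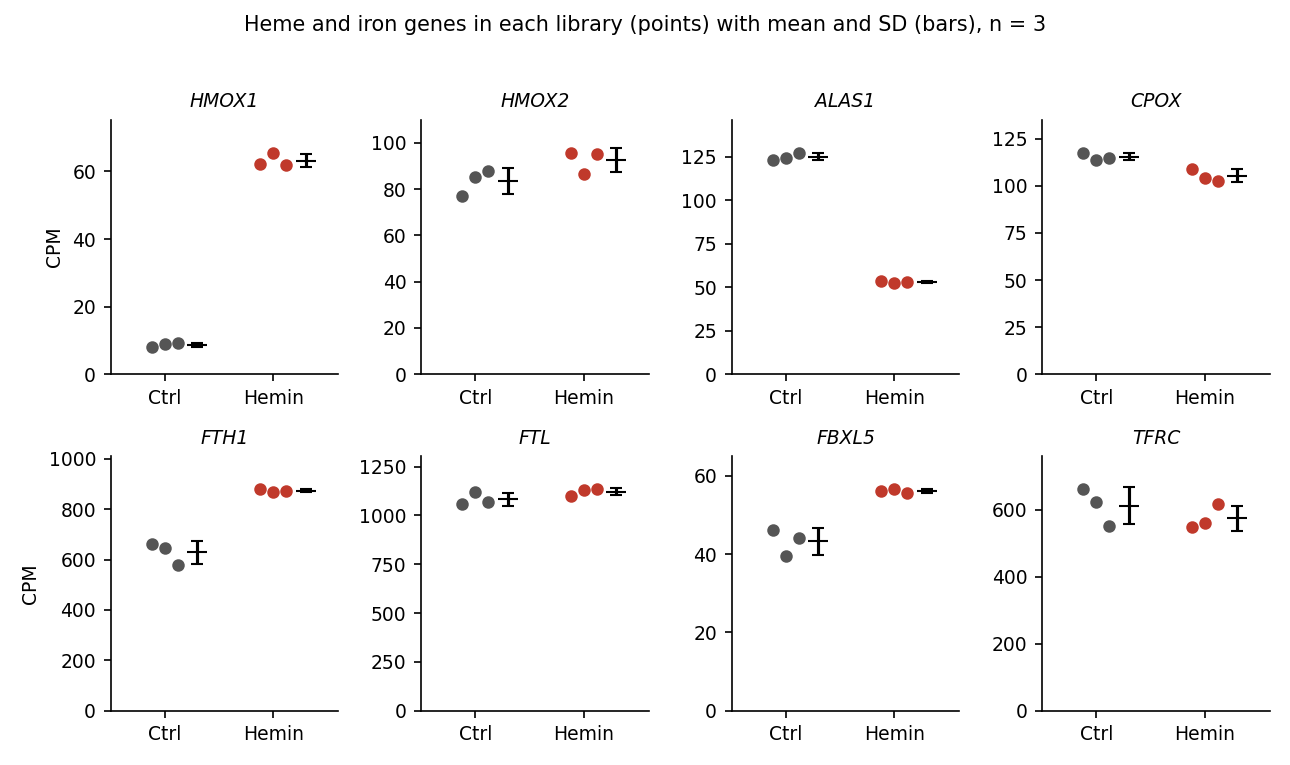
Level (CPM, y axis from 0) of 8 heme and iron genes in each of the 3 Ctrl and 3 Hemin libraries (points), with the mean and SD beside them. HMOX1 rises from 8.71 to 63.2 CPM, ALAS1 falls from 125.1 to 53.1 CPM, FTH1 and FBXL5 rise, and the groups overlap for HMOX2, FTL and TFRC.

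Among 17 tested genes of iron handling, 2 rose and none fell. FTH1, the ferritin heavy chain, read 661, 647 and 578 CPM in Ctrl and 879, 867 and 874 CPM in Hemin (difference 0.47, SE 0.049, adjusted p = 4.52e-04). FBXL5, the ubiquitin ligase subunit that removes iron regulatory proteins when iron is plentiful, read 46.1, 39.5 and 44.1 CPM against 56.2, 56.5 and 55.5 CPM (difference 0.38, SE 0.063, adjusted p = 0.00737). Both rises were larger than the spread within the groups and held whichever library was left out. The ferritin light chain gene FTL had means of 1082 and 1122 CPM (difference 0.05, adjusted p = 0.623). TFRC, the transferrin receptor, whose mRNA is degraded in iron-rich cells, read 660, 622 and 552 CPM in Ctrl and 547, 559 and 617 CPM in Hemin, so that the groups overlapped (difference -0.09, SE 0.14, adjusted p = 0.82).

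Of 38 tested targets of NRF2 and BACH1, 4 rose and none fell, namely HMOX1, FTH1, GCLM and SLC7A11, and the median of the list was 0.0126. The lists share members, so HMOX1 and FTH1 were already counted above and SLC7A11 is counted again among the amino acid transporters. GCLM, the regulatory subunit of the enzyme that begins glutathione synthesis, read 59.4, 50.6 and 49.8 CPM in Ctrl and 93.7, 76.9 and 74.2 CPM in Hemin (difference 0.62, SE 0.087, adjusted p = 0.00253). SLC7A11, the cystine transporter, differed by 0.18 (adjusted p = 0.0321), and its call was lost when 1 library other than Hemin replicate 1 was left out (adjusted p up to 0.122). Widely used NRF2 targets did not pass the test. NQO1 differed by 0.09 (adjusted p = 0.239), SRXN1 by 0.09 (adjusted p = 0.164), and GCLC, the catalytic partner of GCLM, by -0.35 (adjusted p = 0.153). TXNRD1 could not be judged, since 1 Ctrl library stood at 253 CPM while the other libraries held 389 to 406 CPM. None of the 9 regulators of this pathway, BACH1, NFE2L2 and KEAP1 among them, was called. The 250 bases before the RefSeq start of GCLM (chr1:93909431-93909680, minus strand, GRCh38.p14) are printed because GCLM had, after HMOX1, the largest difference among the 4 called targets. MGST1, a glutathione transferase, differed by more (0.66) at a low level of 1.76 to 2.28 CPM in Ctrl and 2.76 to 3.41 CPM in Hemin, but did not pass the test (adjusted p = 0.0683). Capitals mark the 1 match to TGACNNNGC, the core of the antioxidant response element at which NRF2 and BACH1 bind, searched on both strands.
GCLM: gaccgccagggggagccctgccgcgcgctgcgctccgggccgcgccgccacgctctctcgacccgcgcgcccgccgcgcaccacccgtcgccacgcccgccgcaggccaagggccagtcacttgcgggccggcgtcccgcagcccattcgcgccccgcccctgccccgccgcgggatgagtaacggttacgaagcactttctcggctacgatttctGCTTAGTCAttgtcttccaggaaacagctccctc
This core occurred in 11.0% of all 27305 promoter windows of that length and in 11.8% of those of tested genes, so 1 match is common. Of the 155 genes higher with hemin that had a window, 10.3% held it.

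Some genes that respond to zinc fell. Metallothioneins bind zinc and copper in the cytosol, SLC30A1 exports zinc, and both are transcribed by MTF1 when free zinc rises. Of 13 listed genes, 5 passed the filter on low counts, 3 fell and 1 rose. MT2A, a metallothionein gene, read 309, 320 and 306 CPM in Ctrl and 182, 184 and 181 CPM in Hemin (difference -0.77, SE 0.040, adjusted p = 3.81e-06). SLC30A1 (chr1:211571568-211578742, minus strand, hg38) read 33.2, 30.0 and 32.6 CPM against 12.9, 16.2 and 14.1 CPM (difference -1.15, SE 0.084, adjusted p = 4.09e-05). For both genes every Hemin library lay well below every Ctrl library, and no called gene had overlapping groups. MT1X fell by 0.83 log2 units (SE 0.097, adjusted p = 8.44e-04), from 7.59, 7.83 and 8.29 CPM to 4.99, 4.08 and 4.26 CPM. The opposite direction was seen for SLC39A10, a zinc importer, at 24.1, 20.8 and 22.2 CPM in Ctrl and 32.8, 36.8 and 38.4 CPM in Hemin (difference 0.69, SE 0.13, adjusted p = 0.0133). The call of SLC39A10 was lost without Ctrl replicate 2 or 3 or Hemin replicate 2 or 3 (adjusted p up to 0.060), while the calls of MT2A, MT1X and SLC30A1 were kept in each case. MTF1 itself had means of 48.4 and 50.8 CPM (difference 0.07, adjusted p = 0.389). MT1E, MT1F and MT1G were at 0 counts in all 6 libraries, and since the metallothionein genes are near-identical copies, the counting may have split or dropped their reads.

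The promoters of the 3 genes that fell are shown because each holds the core of the metal response element, at which MTF1 binds. They are the 250 bases before the RefSeq start in GRCh38.p14, of MT2A (chr16:56608334-56608583, plus strand), MT1X (chr16:56682220-56682469, plus strand) and SLC30A1 (chr1:211579162-211579411, minus strand). Capitals mark each match to TGCACNC or TGCGCNC on either strand.
MT2A: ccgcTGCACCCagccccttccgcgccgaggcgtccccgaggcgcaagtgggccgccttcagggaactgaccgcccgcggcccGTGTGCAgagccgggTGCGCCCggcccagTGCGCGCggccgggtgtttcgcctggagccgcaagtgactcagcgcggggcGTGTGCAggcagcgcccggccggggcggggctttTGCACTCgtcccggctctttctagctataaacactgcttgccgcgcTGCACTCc
MT1X: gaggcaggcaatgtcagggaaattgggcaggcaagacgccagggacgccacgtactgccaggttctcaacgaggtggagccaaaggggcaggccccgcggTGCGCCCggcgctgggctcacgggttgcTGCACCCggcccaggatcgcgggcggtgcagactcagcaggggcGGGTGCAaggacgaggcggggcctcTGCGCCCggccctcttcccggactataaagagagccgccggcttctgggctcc
SLC30A1: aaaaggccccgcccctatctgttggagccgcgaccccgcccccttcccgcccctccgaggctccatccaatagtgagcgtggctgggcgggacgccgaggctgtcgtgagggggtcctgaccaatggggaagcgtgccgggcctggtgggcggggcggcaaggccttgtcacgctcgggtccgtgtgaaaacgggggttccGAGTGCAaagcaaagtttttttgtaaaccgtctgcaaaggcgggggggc
MT2A had 7 matches, MT1X had 4 and SLC30A1 had 1. At least 3 matches were found in 1.56% of all 27305 windows and in 2.30% of the windows of tested genes, and at least 1 in 24.7% and 32.9%. Of the genes lower with hemin, 294 of 370 had a window, and 35.7% of these held at least 1 match and 1.70% at least 3. The window of SLC39A10 held no match.

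**Figure D3:**
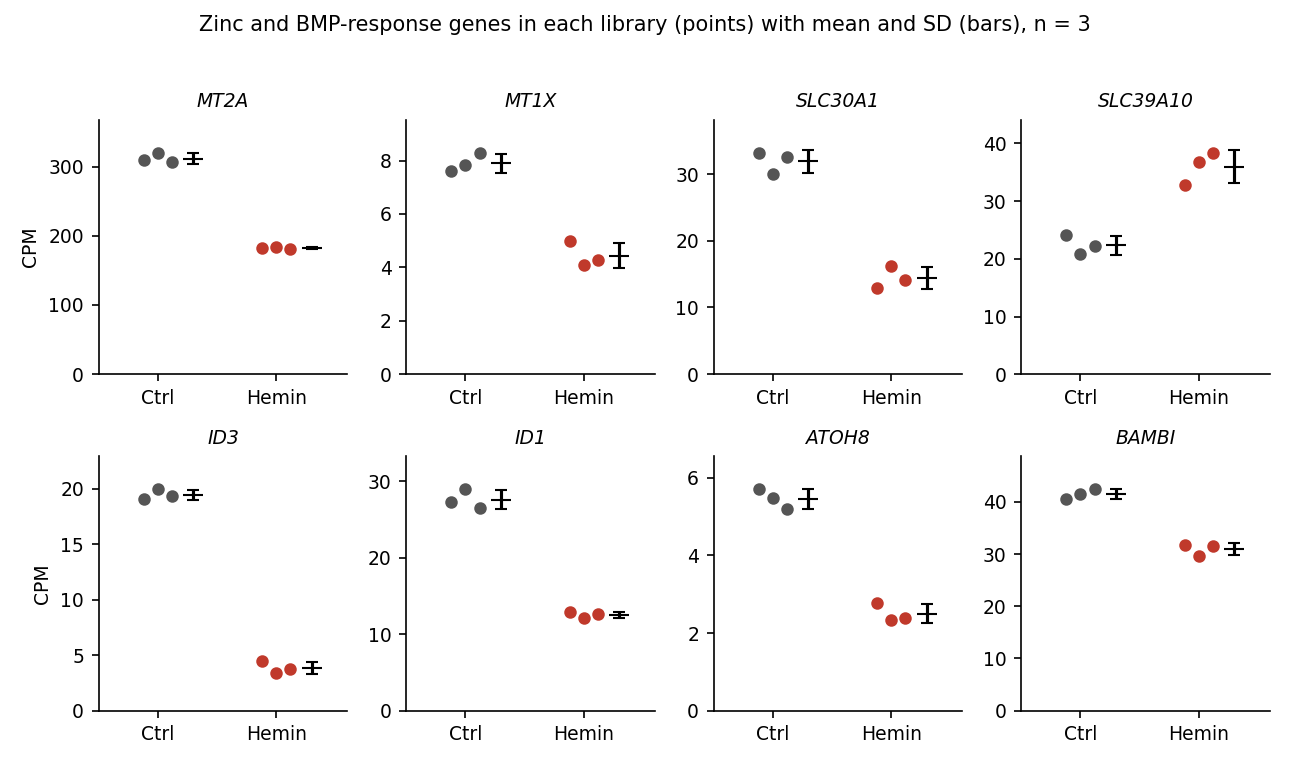
Level (CPM, y axis from 0) of 4 zinc genes and 4 genes of the response to bone morphogenetic proteins in each Ctrl and Hemin library (points), with the mean and SD beside them. MT2A, MT1X, SLC30A1, ID3, ID1, ATOH8 and BAMBI are lower and SLC39A10 is higher in all 3 Hemin libraries than in any Ctrl library.

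Among called genes of at least 5 CPM, the largest fall was that of ID3 (chr1:23557918-23559794, minus strand, hg38). ID proteins bind and block E-protein transcription factors, and their genes are direct targets of SMAD1 and SMAD5, which carry the signal of bone morphogenetic proteins (BMPs). ID3 read 19.1, 19.97 and 19.3 CPM in Ctrl and 4.45, 3.36 and 3.74 CPM in Hemin (difference -2.34, SE 0.13, adjusted p = 4.41e-06). ID1 read 27.3, 29.0 and 26.6 CPM against 12.9, 12.1 and 12.7 CPM (difference -1.14, SE 0.072, adjusted p = 1.20e-05). The groups were several times further apart than the libraries within them. CXXC5, a zinc finger protein induced by BMP, also stood among the 10 largest called falls, with 36.4, 38.7 and 37.9 CPM in Ctrl and 21.8, 22.7 and 20.7 CPM in Hemin (difference -0.80, adjusted p = 1.20e-05).

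These falls led to a further list of 37 genes of BMP and SMAD signalling, written after their values were seen, so its counts are a description only. Of its 33 tested members 13 were lower and none was higher, with a median of -0.184, and 6 of the 13 kept the call whichever library was left out. ATOH8, a transcription factor gene induced through SMADs, fell by 1.12 log2 units (adjusted p = 8.44e-04), from 5.19 to 5.71 CPM in Ctrl to 2.35 to 2.78 CPM in Hemin. BAMBI, a decoy receptor, fell by 0.42 (adjusted p = 8.06e-04), and the inhibitory SMAD gene SMAD7 fell by 0.35 (adjusted p = 0.0237). The call of SMAD7 was lost without Ctrl replicate 2 or 3 or Hemin replicate 1 or 3 (adjusted p up to 0.0862). SMAD6 had a difference of -0.40 that missed the threshold (adjusted p = 0.0929). NOG, an antagonist of BMPs, lay the other way at low level, 0.277 to 0.691 CPM in Ctrl and 1.16 to 1.23 CPM in Hemin (difference 1.18, adjusted p = 0.0553).

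Of 83 tested genes of the amino acid response, in 4 lists, 27 were called higher and 1 lower, and the others did not pass the test. When eIF2alpha is phosphorylated, ATF4 is translated and switches on genes for amino acid synthesis, amino acid uptake, tRNA charging and stress secretion, and the branch is known as the integrated stress response. Of 23 tested ATF4 targets and stress factors 7 rose and 1 fell, with a median of 0.324. STC2, a secreted glycoprotein, read 33.8, 32.6 and 30.5 CPM in Ctrl and 56.1, 61.6 and 61.7 CPM in Hemin (difference 0.89, SE 0.055, adjusted p = 1.18e-05). SESN2, a leucine sensor that restrains mTORC1, read 40.4, 44.4 and 44.5 CPM against 70.0, 77.0 and 71.4 CPM (difference 0.76, SE 0.058, adjusted p = 5.98e-05). All Hemin libraries exceeded all Ctrl libraries for both genes, as for every called gene that rose. GDF15, a stress-induced cytokine, rose by 0.70 (adjusted p = 0.00819), CEBPG, which pairs with ATF4, by 0.31 (adjusted p = 0.00753), and INHBE, a secreted hepatokine, by 1.13 (adjusted p = 0.00753) at 1.05 to 1.81 CPM in Ctrl and 2.55 to 3.37 CPM in Hemin. The call of INHBE was lost in a fit of only the 6 Ctrl and Hemin libraries. KLHL24 was the one member that fell, by 0.61 (adjusted p = 9.72e-04).

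ATF4 mRNA itself read 457, 470 and 461 CPM in Ctrl and 503, 521 and 507 CPM in Hemin. The difference was 0.14 (SE 0.031, adjusted p = 0.0257), and the call was lost whichever of the 6 libraries was left out (adjusted p from 0.0547 to 0.111). ADM2, an adrenomedullin-like peptide gene, rose by 0.77 (adjusted p = 0.0213) and lost the call without Hemin replicate 1, 2 or 3 (adjusted p up to 0.0787). TRIB3, the pseudokinase that feeds back on ATF4, read 95.2, 92.9 and 85.1 CPM in Ctrl and 215, 141 and 228 CPM in Hemin. The groups did not overlap, but 1 Hemin library stood far below the others and the difference of 1.10 (SE 0.28) had an adjusted p of 0.0712. DDIT3, which encodes CHOP, read 13.1, 9.37 and 15.8 CPM against 18.5, 18.4 and 18.2 CPM (difference 0.53, adjusted p = 0.379).

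Of 21 tested genes of amino acid synthesis 8 rose and none fell, 20 had a positive difference, the median was 0.204, and 7 of the 8 kept their call whichever library was left out. The mitochondrial folate enzyme gene ALDH1L2 had the largest rise of the list, 0.67 (SE 0.092, adjusted p = 0.00225), from 20.2 to 21.2 CPM in Ctrl to 30.6 to 36.5 CPM in Hemin. ASNS, asparagine synthetase, read 125.7, 122.5 and 122.2 CPM against 155.2, 159.0 and 153.6 CPM (difference 0.34, SE 0.038, adjusted p = 6.96e-04). MTHFD2, of the mitochondrial one-carbon cycle, rose by 0.29 (adjusted p = 3.86e-04), SHMT2, which feeds it from serine, by 0.20 (adjusted p = 0.00960), and the aminotransferase genes GPT2 and GOT1 by 0.28 (adjusted p = 0.00127) and 0.23 (adjusted p = 0.00759). CBS, of transsulfuration, rose by 0.37 (adjusted p = 0.00290), a value that could be shared with its near-identical copy CBSL. PSAT1, of serine synthesis, rose by 0.26 (adjusted p = 0.0223) and kept the call only without Ctrl replicate 1 (adjusted p up to 0.0928 otherwise). ALDH1L2 was the one of the 8 whose rise exceeded 0.5 log2 units.

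The lists of transporters and tRNA synthetases had smaller medians than that of amino acid synthesis. Most of their members were not called, and the difference between lists was not tested. Of 19 tested amino acid transporter genes 5 rose and none fell, with a median of 0.155. SLC1A4, a carrier of neutral amino acids, rose by 0.31 (adjusted p = 0.00241) and SLC7A1, of cationic amino acids, by 0.16 (adjusted p = 0.00624). The calls of SLC3A2, SLC38A1 and SLC7A11 (0.23, 0.15 and 0.18) were lost without 4 or 5 of the 6 libraries (adjusted p up to 0.0919, 0.0596 and 0.122). Of 20 tested cytosolic tRNA synthetase genes 7 rose and none fell, 19 were positive, and the median was 0.105. GARS read 405, 410 and 408 CPM in Ctrl and 471, 485 and 467 CPM in Hemin (difference 0.22, SE 0.022, adjusted p = 4.24e-04), and SARS, AARS, YARS and TARS rose by 0.20, 0.18, 0.17 and 0.17. NARS (0.12) and EPRS (0.14) were called with all libraries and lost the call whichever was left out (adjusted p up to 0.143 and 0.148).

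The kinases that start the pathway were not called, and 3 of its 17 core genes rose. EIF2AK1, the heme-regulated kinase HRI, read 142 to 144 CPM in both groups (difference 0.01, SE 0.034, adjusted p = 0.944). EIF2AK3, the endoplasmic reticulum kinase PERK, read 18.1 to 19.6 CPM in Ctrl and 15.5 to 16.5 CPM in Hemin (difference -0.22, adjusted p = 0.0673), and EIF2S1, eIF2alpha, differed by 0.09 (adjusted p = 0.33). PPP1R15A, which encodes GADD34, the subunit that returns eIF2alpha to its unphosphorylated form, read 149.5, 161.8 and 155.7 CPM in Ctrl and 226.5, 238.1 and 230.2 CPM in Hemin (difference 0.57, SE 0.054, adjusted p = 2.69e-04). EIF2B2, of the exchange factor that phosphorylated eIF2 blocks, had a higher count with hemin (difference 0.34, adjusted p = 0.00819), but its deposited TPM did not, at 42.8 ± 7.9 in Ctrl and 41.6 ± 5.27 in Hemin (SD, n = 3 each), the 1 such case among the 95 named called genes. EIF2S2, eIF2beta, rose by 0.13 (adjusted p = 0.0154) and lost the call without Ctrl replicate 1 or 2 or Hemin replicate 2 or 3 (adjusted p up to 0.0786). Of 24 tested endoplasmic reticulum chaperone and unfolded protein response genes only ERN1, the sensor IRE1, was called (0.39, adjusted p = 0.0222), and that call was lost whichever library was left out (adjusted p from 0.0592 to 0.0817).

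The promoter of ASNS (chr7:97872409-97872658, minus strand, GRCh38.p14) is shown because it holds a well-known response site of ATF4. Capitals mark the 1 match to TGATGNAA, the core of the C/EBP-ATF response element, in the 250 bases before its RefSeq start, searched on both strands.
ASNS: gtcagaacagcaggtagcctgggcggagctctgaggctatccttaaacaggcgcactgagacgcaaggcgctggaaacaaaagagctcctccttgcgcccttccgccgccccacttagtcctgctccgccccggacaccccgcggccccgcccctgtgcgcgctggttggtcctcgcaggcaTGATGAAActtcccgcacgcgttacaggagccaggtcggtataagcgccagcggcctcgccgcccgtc
The match begins 68 bases before the start. This core was found in 3.19% of all windows, in 1.55% of those of tested genes, and in 3.87% of the 155 windows of genes higher with hemin. Of the 83 tested genes in the 4 lists of ATF4 targets, amino acid synthesis, transport and tRNA synthetases 48 had a window, and 7 of these (14.6%) held it. Of the 27 members that rose 15 had a window, and ASNS and GOT1 held it.

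Some genes of lipid synthesis rose. Of 23 tested cholesterol synthesis genes, which SREBP2 controls, 5 rose and none fell, 21 were positive, and the median was 0.148. STARD4, a sterol carrier, read 17.2, 16.7 and 16.6 CPM in Ctrl and 23.5, 29.2 and 23.1 CPM in Hemin (difference 0.59, SE 0.088, adjusted p = 0.00358), and MSMO1, a sterol demethylase, read 11.5, 11.4 and 11.5 CPM against 16.2, 15.4 and 18.9 CPM (difference 0.55, SE 0.099, adjusted p = 0.00995). For both the Hemin libraries were all above the Ctrl libraries, as for every called gene that rose, and both calls held whichever library was left out. MVK (0.53), IDI1 (0.19) and SQLE (0.19) were called but lost the call without 4, 5 and 6 of the libraries (adjusted p up to 0.0971, 0.14 and 0.137). Of 12 fatty acid synthesis genes, SCD, the stearoyl-CoA desaturase, rose by 0.23 (adjusted p = 6.82e-04) and LPIN1 by 0.35 (adjusted p = 0.00266), while ELOVL6 fell by 0.20 (adjusted p = 0.0355, up to 0.138 with 1 library left out, called only without Ctrl replicate 1).

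Of 22 tested immediate early genes, which answer growth factors and stress within minutes, 2 rose and 2 fell. JUN, of the AP-1 factor, read 42.0, 39.1 and 41.6 CPM in Ctrl and 68.9, 68.0 and 65.6 CPM in Hemin (difference 0.72, SE 0.093, adjusted p = 0.00225), and KLF4 rose by 0.58 (SE 0.082, adjusted p = 0.00271). NR4A2, an orphan nuclear receptor, fell from 7.64, 8.34 and 9.67 CPM to 4.20, 4.87 and 3.87 CPM (difference -0.99, SE 0.11, adjusted p = 7.13e-04), and EGR3 fell by 0.53 (adjusted p = 0.0275). The call of EGR3 held without Hemin replicate 3 alone (adjusted p up to 0.103 otherwise). NR4A1, which encodes Nur77, the receptor at the centre of the study, read 204, 200 and 208 CPM against 204, 183 and 213 CPM, with overlapping groups (difference -0.03, adjusted p = 0.845).

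Of 15 tested transcriptional outputs of ERK, the kinase held active by BRAF in many melanomas, 5 fell and 2 rose. The feedback inhibitors SPRY4 and SPRY2 fell by 0.29 (adjusted p = 0.00329) and 0.24 (adjusted p = 0.00296), from 181 to 191 CPM to 151 to 157 CPM and from 197 to 209 CPM to 170 to 175 CPM. Cyclin D1 (CCND1), which drives entry into the cell cycle, moved the other way, from 803 to 813 CPM to 950 to 984 CPM (difference 0.26, adjusted p = 0.00217). These 3 calls held whichever library was left out, whereas ETV4 (-0.18), ETV5 (-0.16), DUSP4 (-0.10) and EPHA2 (0.11) lost theirs without 4 or 5 of the 6 libraries (adjusted p up to 0.103, 0.068, 0.14 and 0.0918). Among 22 inflammatory genes LIF, a cytokine of the IL6 family, rose from 45.1, 49.0 and 52.2 CPM to 65.4, 67.2 and 70.8 CPM (difference 0.48, SE 0.059, adjusted p = 0.00118), and IL11 fell by 0.30 (adjusted p = 0.0216, up to 0.0803 with 1 library left out, not called without Ctrl replicate 1 or any 1 Hemin library).

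Of 23 tested melanoma lineage genes 3 fell and none rose, with a median of -0.101. ERBB3, the neuregulin receptor, read 366, 402 and 407 CPM in Ctrl and 326, 295 and 308 CPM in Hemin (difference -0.34, SE 0.049, adjusted p = 0.00315), and WNT5A, a ligand of invasive melanoma states, read 65.9 to 67.5 CPM against 50.2 to 55.0 CPM (difference -0.36, adjusted p = 9.74e-04). SOX10, the lineage factor of neural crest, read 617, 644 and 639 CPM against 548, 549 and 551 CPM. Its difference of -0.21 (adjusted p = 0.0305) lost its call whichever library was left out (adjusted p from 0.0542 to 0.103). In bulk libraries, fewer cells of a kind and less RNA per cell cannot be told apart. None of the 3 erythroid genes with enough counts to be tested was called. The alpha-globin gene HBA1 had 0 to 3 counts a library, and HBE1, embryonic epsilon-globin, had 74, 93 and 97 counts in Ctrl and 86, 76 and 82 in Hemin. EPOR, the erythropoietin receptor, was among the 10 largest called falls, at 8.54, 8.24 and 8.75 CPM in Ctrl and 4.40, 4.43 and 5.57 CPM in Hemin (difference -0.83, adjusted p = 0.00180).

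Smaller groups held 1 or 2 calls each. Over all genes tested 4.06% were called, and so few calls say nothing about these groups as a whole. Of 18 tested clock genes with ties to heme, NFIL3, a repressor that opposes D-box activation, rose by 0.54 (adjusted p = 0.00856, a call lost in a fit of only the 6 Ctrl and Hemin libraries), and NR1D2, REV-ERBbeta, differed by -0.21 (adjusted p = 0.0367), a call that was lost whichever library was left out (adjusted p from 0.0525 to 0.121). Of 18 p53 targets PMAIP1, which encodes the BH3-only protein NOXA, rose by 0.37 (adjusted p = 0.00804) and the cell cycle inhibitor gene CDKN1A by 0.29 (adjusted p = 0.0373, up to 0.135 with 1 library left out, called only without Ctrl replicate 1). Of 18 autophagy and lysosome genes the kinase gene ULK1 fell by 0.38 (adjusted p = 0.00217) and the cargo receptor gene NBR1 by 0.21 (adjusted p = 0.00318). Of 23 hypoxia and glycolysis genes SLC2A3, a glucose transporter, fell by 0.25 (adjusted p = 0.00819) and PFKFB3 by 0.35 (adjusted p = 0.0233, lost without Ctrl replicate 2 or 3 or Hemin replicate 2 or 3, up to 0.103). Of 37 genes of DNA replication and mitosis only CDC20 was called, with a difference of 0.08 (adjusted p = 0.0463) whose call was lost whichever library was left out.

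The remaining genes among the 10 largest called rises were CCNT2, a cyclin of the transcription elongation factor P-TEFb (10.2 to 19.4 CPM, means), the keratin-associated KRTAP2-3 (8.14 to 14.6 CPM), ZNF469 (18.1 to 32.2 CPM), the tight junction gene CLDN1 (4.26 to 7.14 CPM) and the extracellular protease gene ADAMTS6 (5.23 to 8.53 CPM), with differences of 0.92, 0.84, 0.83, 0.75 and 0.71. KRTAP2-3 has near-identical copies in its cluster, so its counts are uncertain. The call of CLDN1 was lost without Ctrl replicate 1 or 3 or Hemin replicate 2 or 3 (adjusted p up to 0.0771). EPHA7, an ephrin receptor, completed the 10 largest called falls with 9.38, 8.64 and 9.77 CPM in Ctrl and 4.28, 5.61 and 4.97 CPM in Hemin (difference -0.90, adjusted p = 0.00101). Below 5 CPM, 2 called genes had a group close to 0. The read-through gene TMED7-TICAM2, which shares exons with its neighbours, had 54, 84 and 64 counts in Ctrl and 0, 0 and 1 in Hemin, and GNA15 had 0 in each Ctrl library and 4, 19 and 6 in Hemin. Both were chosen after their values were seen.

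Several groups had no called member, which does not show that they did not change, since in simulated data of this comparison 54% of 1.5-fold changes were called and 8% of the smallest changes simulated. They were the 23 heat shock genes, 31 proteasome genes, 80 cytosolic ribosomal protein genes, 13 protein genes of the mitochondrial genome, 25 interferon response genes, 13 histone genes and 234 ZNF genes of chromosome 19, with medians of -0.00889, -0.00274, 0.0179, 0.00205, 0.0767, 0.045 and -0.00847. Several genes the study follows upstream of cell death were likewise not called, although ALAS1 and, of the integrated stress response, ATF4 were, as given above. SDHA and SDHC, of the heme-containing succinate dehydrogenase, differed by -0.01 (SE 0.033) and 0.01 (SE 0.044), SUCLG1 and SUCLG2, of succinyl-CoA ligase, by 0.02 (SE 0.046) and 0.06 (SE 0.057), and the mitochondrial protease gene OMA1 and its substrate OPA1 by 0.09 (SE 0.092) and 0.03 (SE 0.046). HK2, hexokinase 2, had 144.5, 133.9 and 141.2 CPM in Ctrl and 157.6, 155.3 and 156.8 CPM in Hemin (difference 0.16, adjusted p = 0.0553). The pore protein gene GSDMC had 2, 0 and 0 counts in Ctrl and 2, 6 and 2 in Hemin, and the protease gene GZMB had 4, 4 and 4 against 4, 8 and 5, both too low to test.

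Whether hemin acted alike in cells given DdBIC was tested as the hemin effect there (DdBIC+Hemin against DdBIC) minus that in untreated cells. Of all genes tested 2376 (16.6%) had an adjusted p under 0.05. Of the 580 genes changed by hemin alone 233 did, and since both tests use the same 6 libraries nothing is read from that share. The heme genes kept their direction. The HMOX1 difference was 2.86 without and 4.43 with DdBIC (adjusted p of the difference between them = 2.23e-05), that of ALAS1 -1.24 and -1.0 (adjusted p = 0.00656), and that of FTH1 0.47 and 0.43 (adjusted p = 0.747). The ratio was larger with DdBIC for the zinc genes that fell, with differences of -0.77 and -1.73 for MT2A (adjusted p = 1.16e-06) and of -1.15 and -2.02 for SLC30A1 (adjusted p = 4.52e-04). DdBIC alone stood higher than Ctrl (means of 599.6 and 311.6 CPM for MT2A and of 63.7 and 31.9 CPM for SLC30A1), while the levels with hemin lay close together (182.3 CPM without and 181.4 CPM with DdBIC for MT2A, 14.4 and 15.8 CPM for SLC30A1). ID3 fell less, with -2.34 and -1.64 (adjusted p = 0.0170), and ID1 had -1.14 and -0.93 (adjusted p = 0.197). For ID3, DdBIC alone stood lower than Ctrl (means of 13.2 and 19.5 CPM).

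Of the 51 named called genes whose hemin effect differed, 22 had opposite signs in the absence and presence of DdBIC, among them stress, early and lipid genes, and for 17 of the 22 the hemin effect with DdBIC was itself called. SESN2 had 0.76 with hemin alone and -1.04 when hemin joined DdBIC (adjusted p of the difference = 1.92e-07), PPP1R15A had 0.57 and -1.22 (adjusted p = 1.22e-07), and ATF4 had 0.14 and -0.25 (adjusted p = 1.10e-04). Means of SESN2 were 43.1 CPM in Ctrl, 72.8 CPM in Hemin, 205.3 CPM in DdBIC and 99.7 CPM in DdBIC+Hemin. JUN had 0.72 and -3.63 (adjusted p = 5.01e-08), and KLF4 and LIF changed sign in the same manner. Means of JUN were 40.9 CPM in Ctrl, 67.5 CPM in Hemin, 1998 CPM in DdBIC and 161.5 CPM in DdBIC+Hemin. STARD4 had 0.59 and -0.72 (adjusted p = 3.96e-05), MSMO1 had 0.55 and -0.27 (adjusted p = 0.0023), and IDI1 had 0.19 and -0.35 (adjusted p = 1.69e-04). With DdBIC the negative value itself passed the test for STARD4 and IDI1 but not for MSMO1 (adjusted p = 0.063). The amino acid synthesis genes named here had positive differences in both settings. ASNS had 0.34 and 0.22 (adjusted p = 0.161), SHMT2 had 0.20 and 0.15 (adjusted p = 0.515), and MTHFD2 had 0.29 and 0.12 (adjusted p = 0.0161).

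**Figure D4:**
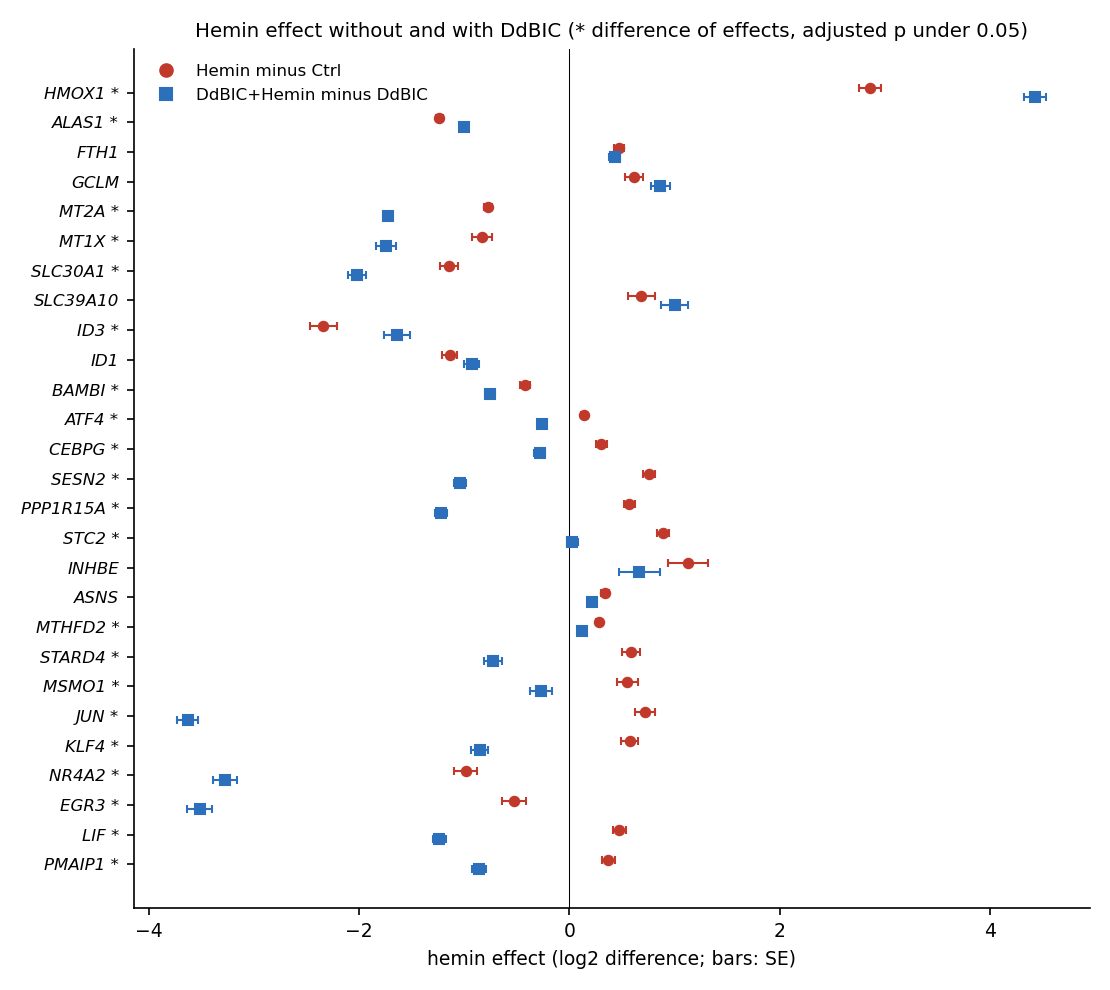
Hemin effect (log2 difference with its SE, x axis) of 27 named genes in cells without DdBIC (circles) and with DdBIC (squares), with an asterisk where the effects differ at an adjusted p under 0.05. HMOX1, ALAS1, the zinc genes that fell and ID1 and ID3 keep their direction, while SESN2, PPP1R15A, ATF4, JUN, KLF4, LIF and PMAIP1 lie on opposite sides of 0.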

How the data were processed

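RNA-seq of A375 cells was analysed in 4 groups of 3 libraries, set by the labels. The authors deposited for each gene a raw read count, which was used here, and TPM and FPKM values, which the authors scaled by gene length and depth and which were read only for checks. The submitters' processing notes name Trim Galore, Subread, featureCounts and hg38; versions, annotation and strand use are not given in the sources used here, so overlapping or near-identical genes could share reads. Tests were run in R 4.3.3 with the package edgeR 4.0.16 (filterByExpr, TMM, robust quasi-likelihood fit of all 12 libraries with one mean per group, 8 residual degrees of freedom), with Benjamini-Hochberg adjustment over 14287 genes. The SE is the absolute log2 difference over the root of F. Intervals were not computed, and the floor of 3 counts covers counting error only. In simulated data for Hemin against Ctrl (14172 genes, 50 changed per fold size, drawn from genes above 5 CPM in Ctrl), 8% of 1.25-fold, 54% of 1.5-fold, 90% of 2-fold and 94% of 0.5-fold changes were called, with 4 calls among unchanged genes. The alternatives were upper-quartile and library-size scaling, DESeq2 1.42.0, limma-voom 3.58.1, other count filters, a fit of 6 libraries, a replicate block and leaving out each library. Gene lists and members were chosen with earlier results of these data known. The genes named are HMOX1, the heme and iron lists, up to 6 called members per direction of other lists, the 10 largest rises and falls among called genes at 5 CPM or more without overlap, and genes of the study's pathway; some members of the lists are counted but not reported here by name. Promoters came from RefSeq.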

Additional observations from a re-analysis of the deposited data

Results flagged for a closer look

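For 51 of the 95 named genes changed by hemin alone, the hemin effect with DdBIC differed from that without it (edgeR's interaction test, adjusted p under 0.05). Each value below is the effect with DdBIC minus the effect without, in log2 units. No explanation was tested, and in every case the same Ctrl and Hemin libraries enter both the call and this difference.

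HMOX1 had a difference of 1.57 and ALAS1 of 0.239, each keeping its direction. The zinc genes MT2A (-0.952), MT1X (-0.914) and SLC30A1 (-0.87) had larger negative ratios with DdBIC, the zinc genes from a higher level in DdBIC alone, and BAMBI (-0.329) did as well, while ID3 (0.699) and CXXC5 (0.594) fell less. ID3 and CXXC5 started from a lower level in DdBIC alone (13.2 and 25.7 CPM) than in Ctrl (19.5 and 37.7 CPM). With hemin they read 3.85 and 21.7 CPM without DdBIC and 4.23 and 22.3 CPM with it.

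Among stress genes the values were -1.8 for SESN2, -1.79 for PPP1R15A, -1.41 for ERN1, -0.86 for STC2, -0.587 for CEBPG, -0.431 for ALDH1L2, -0.397 for ATF4, -0.462 for SLC3A2, -0.165 for MTHFD2 and -0.0975 for YARS. SESN2, PPP1R15A, ERN1, CEBPG, ATF4 and SLC3A2 had opposite signs in the presence and absence of DdBIC.

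Early and signalling genes had differences from -4.35 to -0.173, namely JUN -4.35, EGR3 -2.99, NR4A2 -2.29, LIF -1.71, KLF4 -1.43, IL11 -1.37, SPRY4 -0.884, SPRY2 -0.606, EPHA2 -0.348 and DUSP4 -0.173. JUN, LIF, KLF4 and EPHA2 had opposite signs, and the others were negative in both settings and further from 0 with DdBIC.

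Lipid genes had -1.31 for STARD4, -0.822 for MSMO1, -0.544 for IDI1, -0.448 for LPIN1 and -0.315 for SQLE, and all 5 were positive without DdBIC and negative with it, although with DdBIC the value passed the test for STARD4 and IDI1 alone. The remaining values were -2.17 for CCNT2, -1.62 for NFIL3, -1.5 for KRTAP2-3, -1.23 for PMAIP1, -1.05 for PNRC1, -1.02 for ADAMTS6, -0.57 for SLC2A3, -0.373 for FBXL5, -0.359 for CDKN1A and -0.237 for NR1D2, and, in the positive direction, 0.145 for CDC20, 0.177 for IGF1R, 0.22 for NBR1, 0.274 for MXD4, 0.316 for ERBB3, 0.353 for WNT5A, 0.525 for EPHA7 and 0.586 for EPOR. Of these, CCNT2, NFIL3, KRTAP2-3, PMAIP1, ADAMTS6, CDKN1A and NBR1 had opposite signs, which brings the genes with opposite signs to 22. For 17 of these the effect with DdBIC was itself called, and it was not for MSMO1 (-0.27), SQLE (-0.13), LPIN1 (-0.10), CDKN1A (-0.07) and NBR1 (0.01), whose sign with DdBIC is not established. With 3 libraries a group, no test for a single value far from the others was made.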

How the results depend on the processing

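None of the 580 called genes changed direction under the 14 alternatives for the hemin comparison. Since the groups of all 580 did not overlap, a change of direction was hardly possible, and nothing is read from its absence. The calls themselves held less well, and leaving out 1 Ctrl or Hemin library kept 45.5% to 58.1% of them. The number called was 577 with upper-quartile scaling, 597 with library size only, 863 with DESeq2, 549 with limma-voom, 533 without a filter, 621 with at least 10 counts in every library, 511 with only the 6 Ctrl and Hemin libraries (405 of them, or 69.8% of the 580, shared in the same direction), and 272 to 373 when 1 of these 6 was left out. The share of higher genes was 33.6% to 42.5%. For the difference in hemin effect, 2376 genes became 1952 to 2313 when 1 of the 12 libraries was left out. Of 95 named called genes, 71 kept the call under the 8 alternatives that keep all 3 libraries of each group and 67 under each of the 6 that leave 1 out. TRIB3, CPOX, EIF2AK3, HK2, SMAD6, NOG and MGST1 were called with DESeq2. HK2 was also called with upper-quartile scaling, and HK2 and SMAD6 with only the 6 Ctrl and Hemin libraries. NOG was also called with limma-voom and with at least 10 counts in every library, and TRIB3 with the replicate block.

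With the replicate number as a block, 408 genes were called, 394 of them shared with the 580 in the same direction, and 2078 for the difference in hemin effect. Deviations of same-numbered Ctrl and Hemin libraries correlated by -0.0012, -0.0462 and 0.031, so the numbers were not taken as a pairing. Depth limits genes near 0.0790 CPM.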

Other observations

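Further groups were seen among the called genes and put into lists after their values were seen, so the counts below describe and test nothing. A list of 35 genes that FOXO factors or growth arrest are known to raise had 20 lower and none higher, with a median of -0.283. KLHL24, ERBB3 and ULK1, counted in other lists above, are among these 20. PNRC1, a repressor of ribosomal RNA synthesis, read 14.4 to 15.9 CPM in Ctrl and 9.41 to 9.94 CPM in Hemin (difference -0.63, adjusted p = 6.72e-04), MXD4, an antagonist of MYC, 28.8 to 31.1 CPM against 19.1 to 20.1 CPM (difference -0.61, adjusted p = 2.38e-04), PDCD4, an inhibitor of translation, 77.4 to 84.6 CPM against 55.9 to 60.7 CPM (difference -0.49, adjusted p = 4.36e-04), and IGF1R, the receptor of insulin-like growth factors, 266 to 275 CPM against 210.1 to 214.8 CPM (difference -0.35, adjusted p = 1.71e-04). For all 4 the groups did not overlap, as for every called gene and for 25.1% of all genes tested. Of the 20 calls 13 held whichever library was left out. In the same libraries 14 of 58 ribosome biogenesis genes were higher and none was lower, by at most 0.22 log2 units, and of these 14 WDR3 (0.16, adjusted p = 0.00247) alone kept its call whichever library was left out. All 58 were tested, and their median was 0.0839.

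Of 13 tested SOX transcription factor genes 7 were lower, SOX10 given above among them, and none was higher. SOX5, SOX13 and SOX11 differed by -0.37 (adjusted p = 0.00189), -0.35 (adjusted p = 0.00252) and -0.27 (adjusted p = 0.00624) and kept the call whichever library was left out, while the other 4 did not.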
